A study of Mus musculus with 6 samples.

Results

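Transcription factors that pattern the stroma and sinusoids of the spleen were followed in bulk RNA sequencing of splenic endothelial cells. The members were 6 genes chosen by symbol, Nkx2-3, Maf, Gata4, Tlx1, Tcf21 and Wt1. Of these, 5 were matched among the 23207 gene rows and measured, and Gata4 was not analysed here. All 5 passed the filter on low counts.

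The cells came from Apoe-knockout mice, a strain without apolipoprotein E that becomes hypercholesterolaemic on a cholesterol-rich diet. One group, mice 1603, 1604 and 1607, had received an antisense oligonucleotide (ASO, a designed strand that base-pairs with one RNA so that it is degraded or blocked) against MLKL, the pseudokinase whose oligomers open the cell membrane in necroptosis. Their controls, mice 1601, 1602 and 1608, had received a control ASO. Both groups of 3 mice carried the Apoe knockout and had 8 weeks of ASO with a high cholesterol diet, and each mouse gave 1 library. The sources used here do not give how the endothelial cells were isolated, the age and sex of the mice, or the sequence, dose and route of either ASO. An ASO is not bound to a cell type by a promoter or Cre, so the labels do not limit the knockdown to endothelium.

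The spleen forms from a fold of mesenchyme beside the stomach. The homeobox factors Tlx1 (also called Hox11) and Nkx2-3, the helix-loop-helix factor Tcf21 and the zinc finger factor Wt1 are needed in mouse embryos for that mesenchyme or its vessels to form a normal spleen. In the adult spleen Nkx2-3 is needed for the ordered vessels of the red pulp and marginal zone and for the homing molecule MAdCAM-1. Gata4 and Maf are known from mouse liver as factors of sinusoidal endothelium, and Maf also acts in macrophages and T cells.

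Promoter sequences, from 250 bases before to 50 bases after the annotated start of transcription, were held by the RefSeq table of build GRCm38.p6 for 3 of the 6 genes. They are shown because, with all 6 mice, Nkx2-3 stood on one side and Tlx1 and Tcf21 on the other in how their levels varied. Control mouse 1608 made most of that contrast, and without it Tlx1 was nearer to Nkx2-3 than to Tcf21. Capitals mark matches on either strand to 4 motifs, the PBX with HOX site TGATTNAT, the CCAAT box CCAAT, the GATA site GATAA and the NKX2 site TNAAGTG, and each sequence runs 5′ to 3′ along the gene's own strand.
Nkx2-3, chr19:43612075-43612374, plus strand: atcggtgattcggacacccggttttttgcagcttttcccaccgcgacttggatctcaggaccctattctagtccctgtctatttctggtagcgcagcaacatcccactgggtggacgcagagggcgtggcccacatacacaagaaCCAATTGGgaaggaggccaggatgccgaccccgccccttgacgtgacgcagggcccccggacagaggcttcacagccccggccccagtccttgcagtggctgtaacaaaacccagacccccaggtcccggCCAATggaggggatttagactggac
Tlx1, chr19:45150465-45150764, plus strand: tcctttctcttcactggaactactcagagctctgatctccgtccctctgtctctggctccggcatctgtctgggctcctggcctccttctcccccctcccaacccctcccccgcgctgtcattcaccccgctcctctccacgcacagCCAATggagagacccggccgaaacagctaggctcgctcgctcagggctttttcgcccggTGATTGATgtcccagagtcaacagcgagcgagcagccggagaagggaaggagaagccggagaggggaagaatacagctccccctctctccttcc
Tcf21, chr10:22820094-22820393, minus strand: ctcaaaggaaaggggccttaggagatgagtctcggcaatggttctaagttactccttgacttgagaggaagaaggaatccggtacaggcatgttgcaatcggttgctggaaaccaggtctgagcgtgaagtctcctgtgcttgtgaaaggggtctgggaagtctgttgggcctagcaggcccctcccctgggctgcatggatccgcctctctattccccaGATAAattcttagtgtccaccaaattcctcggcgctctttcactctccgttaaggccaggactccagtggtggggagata

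The Nkx2-3 promoter held 3 matches to the CCAAT box, of which those at bases 146 to 150 and 149 to 153 overlap on opposite strands. The Tlx1 promoter held a CCAAT box at bases 148 to 152 and the PBX with HOX site at bases 207 to 214, counted from 1 at its 5′ end. The Tcf21 promoter held a GATA site at bases 221 to 225. Among 32851 promoters of the same length, 37.4% held the CCAAT box, 25.4% the GATA site, 11.5% the NKX2 site and 3.22% the PBX with HOX site. These matches describe letters only.

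Library totals ran from 59988846 to 85724084 estimated counts in MLKL ASO mice and from 67699450 to 87776706 in control ASO mice. Mlkl itself measured 5.70 ± 1.90 CPM (counts scaled to a common library size after TMM adjustment; SD, n = 3) in MLKL ASO mice and 33.3 ± 4.09 CPM (SD, n = 3) in control ASO mice, with no overlap. Its adjusted p was 0.0655 in edgeR's quasi-likelihood test. The 12 pan-endothelial markers, led by Cldn5, Ptprb and Eng, were detected in every library, with a summed level of 3148 to 3401 CPM in MLKL ASO mice and 2446 to 4580 CPM in control ASO mice. RNA of other cells was present as well. The 14 reticular fibroblast markers summed to 86.9 to 128 CPM in MLKL ASO mice and to 38.9 to 138 CPM in control ASO mice. Control mouse 1608 had the highest pan-endothelial and the lowest reticular fibroblast sum of the 6 mice. Control mouse 1601 stood at the other end, with the lowest pan-endothelial and the highest reticular fibroblast sum. The log2 fold change of each member is therefore given with all 6 mice, without mouse 1608 and without mouse 1601. The list medians and named partners or relatives that mouse 1608 moves are also given without it.

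No member passed the threshold between the groups. The count was 0 of 5 in edgeR's quasi-likelihood test at an adjusted p of 0.05, against 0.0101% of all 19745 genes tested, and 1 of 5 (Nkx2-3) at an unadjusted p under 0.05, against 11.8% of all genes in either direction and 6.96% that were lower. DESeq2 also called 0 of 5 (2.61% of all genes) and limma-voom 0 of 5 (0.111% of all genes). The authors' deposited table likewise had none of the 5 past 0.05, with 1.81% of its rows past it. The 2 groups overlapped for each of the 5 members, while 18.7% of all genes tested had groups that did not overlap (9.02% higher and 9.71% lower in MLKL ASO mice).

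The members differed widely in level. Per kilobase of the longest coding transcript in GENCODE vM21, Nkx2-3 averaged 34.4 ± 5.76 CPM per kb in MLKL ASO mice and 49.5 ± 13.9 CPM per kb in control ASO mice (SD, n = 3 each). Maf followed at 18.3 ± 0.373 CPM per kb in MLKL ASO mice and 20.1 ± 7.08 CPM per kb in control ASO mice. Tcf21 averaged 3.47 ± 1.01 CPM per kb in MLKL ASO mice and 2.16 ± 1.49 CPM per kb in control ASO mice. Wt1 and Tlx1 were the lowest and did not differ from each other beyond their spread. Wt1 averaged 1.24 ± 0.668 CPM per kb in MLKL ASO mice and 1.02 ± 0.747 CPM per kb in control ASO mice. Tlx1 averaged 0.654 ± 0.413 CPM per kb in MLKL ASO mice and 0.838 ± 0.660 CPM per kb in control ASO mice. Nkx2-3 and Maf kept the first and second place in all 6 mice. Which transcript lengths the authors used was not stated in the labels.

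**Figure D1:**
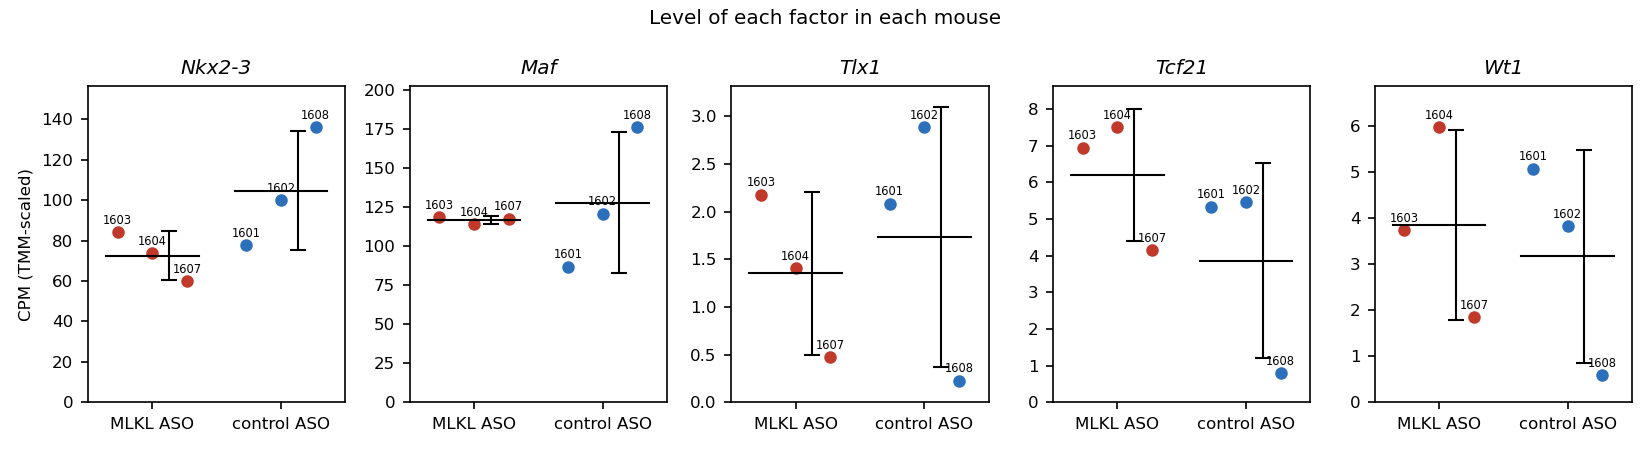
Level of each measured factor in each mouse, in TMM-scaled CPM on a linear axis from 0, with MLKL ASO mice in red and control ASO mice in blue. Horizontal lines are group means and vertical bars 1 SD (n = 3). The groups overlap in all 5 panels, and control mouse 1608 is the highest for Nkx2-3 and Maf and the lowest for Tlx1, Tcf21 and Wt1.

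Nkx2-3, the homeobox factor of spleen and gut vessels, had the lowest unadjusted p of the members. It measured 84.1, 73.8 and 59.9 CPM in MLKL ASO mice 1603, 1604 and 1607, against 77.8, 99.9 and 136 CPM in control ASO mice 1601, 1602 and 1608. Mouse 1603 of the MLKL ASO group lay above mouse 1601 of the control group, so the groups overlapped. The edgeR estimate of the log2 fold change was -0.53 (standard error 0.22, 95% interval -1.05 to -0.0024; unadjusted p = 0.0492, adjusted p = 0.420). The exact two-sided permutation test of the CPM values gave p = 0.2 (n = 3 per group, smallest possible 0.1). The authors' deposited table gave a log2 fold change of -0.47 with an adjusted p of 0.486. Without control mouse 1608 the log2 fold change was -0.29 (edgeR adjusted p = 0.504). Without control mouse 1601 it was -0.72 (edgeR unadjusted p = 0.00962, adjusted p = 0.229).

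Set against endothelial genes rather than the whole library, Nkx2-3 separated the groups, by an amount that depended on the genes it was set against. These ratios were computed after the values had been seen. As a percent of the summed CPM of the 12 pan-endothelial markers, Nkx2-3 came to 2.47%, 2.34% and 1.84% in MLKL ASO mice 1603, 1604 and 1607, against 3.18%, 2.94% and 2.97% in control ASO mice 1601, 1602 and 1608. All MLKL ASO mice were below all control ASO mice, including mouse 1608. The means were 2.22 ± 0.335% in MLKL ASO mice and 3.03 ± 0.131% in control ASO mice (SD, n = 3 each; exact two-sided permutation p = 0.1, adjusted p = 0.5 over the 15 ratios computed). Of all genes tested, 4.35% were lower without overlap on this scale. The log2 ratio of -0.45 ranged from -0.54 to -0.33 with each mouse left out. Leaving out a mouse cannot make separate groups overlap, so these runs bear on the size of the ratio only. The markers were unequal as partners: against single markers, Nkx2-3 was lower without overlap for 7 of 12. The share of all genes without overlap against single markers was not computed. As a percent of the summed sinusoidal endothelial genes, Nkx2-3 came to 1.25%, 1.152% and 1.23% in MLKL ASO mice 1603, 1604 and 1607, against 1.32%, 1.28% and 1.33% in control ASO mice 1601, 1602 and 1608. The groups again did not overlap, but the log2 ratio was -0.11 (exact two-sided permutation p = 0.1, adjusted p = 0.5, n = 3 per group). The share of all genes without overlap on this scale was not computed. Plvap, the highest gene of the sinusoidal sum, was itself lower without overlap, at 1977 ± 718 CPM in MLKL ASO mice. Control ASO mice had 3551 ± 876 CPM of Plvap (SD, n = 3 each), and a sum without it was not computed. In an edgeR fit scaled to the summed pan-endothelial markers Nkx2-3 did not pass (log2 fold change -0.45, unadjusted p = 0.0907, adjusted p = 1.0).

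Maf, a basic leucine zipper factor, showed the smallest difference of the 5. It measured 118, 114 and 118 CPM in MLKL ASO mice 1603, 1604 and 1607, against 86.8, 121 and 176 CPM in control ASO mice 1601, 1602 and 1608. The MLKL ASO mice lay within 1.04-fold of each other and inside the control range, which spanned 2.03-fold. By edgeR the log2 fold change came to -0.13 (standard error 0.24, 95% interval -0.69 to 0.42; adjusted p = 0.865). It was 0.17 without control mouse 1608 (edgeR adjusted p = 0.668) and -0.37 without control mouse 1601 (edgeR adjusted p = 0.410). Maf varied little against the summed pan-endothelial markers and more against the summed sinusoidal genes. Against single pan-endothelial markers it was lower without overlap for 2 of 12 and higher for 2, with no share over all genes computed. As a percent of their summed CPM it was 3.48%, 3.62% and 3.61% in MLKL ASO mice and 3.55%, 3.56% and 3.84% in control ASO mice, a spread of 1.10-fold over all 6 (exact two-sided permutation p = 0.6, n = 3 per group). As a percent of the summed sinusoidal genes it was 1.77%, 1.78% and 2.42% in MLKL ASO mice 1603, 1604 and 1607, against 1.47%, 1.55% and 1.72% in control ASO mice 1601, 1602 and 1608. Here all MLKL ASO mice lay above all control ASO mice, with a log2 ratio of 0.33 (exact two-sided permutation p = 0.1, adjusted p = 0.5, n = 3 per group) and a spread of 1.64-fold over all 6. The sinusoidal sum was led by Plvap, which was itself lower without overlap in MLKL ASO mice. Neither a sum without Plvap nor the share of all genes without overlap on this scale was computed.

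Macrophages and T cells can also express Maf, and their RNA was present. The 15 macrophage markers were all above 0 in each library and summed to 1885 to 2288 CPM in MLKL ASO mice and 1634 to 3679 CPM in control ASO mice. Lyz2, lysozyme, averaged 735 ± 39.2 CPM in MLKL ASO mice and 946 ± 636 CPM in control ASO mice, and C1qb, a complement C1q chain, 199.7 ± 5.95 CPM in MLKL ASO mice and 164 ± 62.1 CPM in control ASO mice (SD, n = 3 each). The 12 T cell markers were above 0 in each library and summed to 181 to 224 CPM in MLKL ASO mice and 274 to 669 CPM in control ASO mice. All 12 were lower without overlap in MLKL ASO mice, against 9.71% of all genes. By edgeR's adjusted p 0 of 12 passed, with 12 at an unadjusted p under 0.05 and 6 past the threshold in DESeq2. Their median log2 fold change was -1.1, with -1.36 without mouse 1608 and -0.72 without control mouse 1601. Trbc2, which encodes part of the T cell receptor beta chain, averaged 25.9 ± 2.63 CPM in MLKL ASO mice and 69.5 ± 43.0 CPM in control ASO mice (SD, n = 3 each). Lck, a T cell kinase, averaged 57.6 ± 2.99 CPM in MLKL ASO mice and 108 ± 45.0 CPM in control ASO mice, and Trac, of the receptor alpha chain, 23.0 ± 3.05 CPM in MLKL ASO mice and 53.9 ± 28.9 CPM in control ASO mice. Control mouse 1601 was the highest for macrophage and for T cell markers and the lowest of the 6 for Maf. The part of these cells in the Maf level was not tested.

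**Figure D2:**
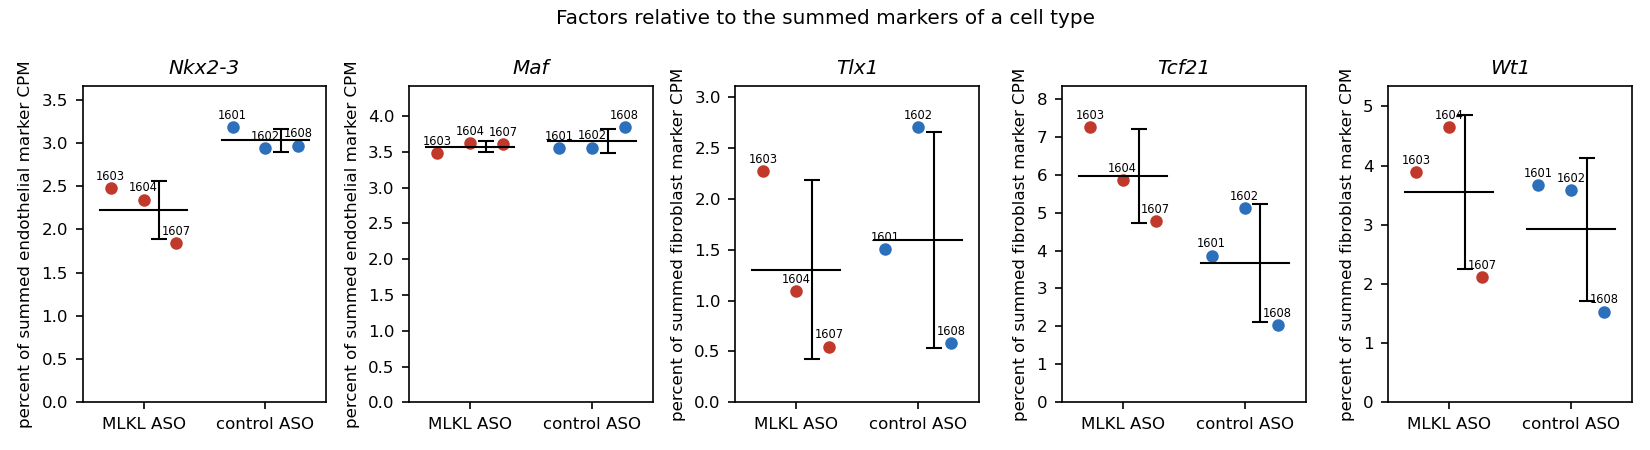
Nkx2-3 and Maf as a percent of the summed CPM of 12 pan-endothelial markers, and Tlx1, Tcf21 and Wt1 as a percent of the summed CPM of 14 reticular fibroblast markers, in each mouse (MLKL ASO red, control ASO blue). Lines are means and bars 1 SD (n = 3). Nkx2-3 lies between 1.84% and 2.47% in MLKL ASO mice and between 2.94% and 3.18% in control ASO mice, and the other 4 factors overlap.

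The mesenchymal factors Tlx1, Tcf21 and Wt1 were low, and each was lowest in control mouse 1608. Among MLKL ASO mice alone, Tlx1 spanned 4.59-fold, Wt1 3.24-fold and Tcf21 1.81-fold. Tlx1 measured 2.18, 1.4 and 0.474 CPM in MLKL ASO mice 1603, 1604 and 1607, against 2.08, 2.88 and 0.227 CPM in control ASO mice 1601, 1602 and 1608. These values rest on 42 to 134 estimated counts in MLKL ASO mice and 16 to 239 in control ASO mice. The lowest mouse of each group lay far under its other two. Its fitted edgeR log2 fold change was -0.37 (standard error 0.86, 95% interval -2.39 to 1.66; adjusted p = 0.905). Without mouse 1608 it was -0.88 (edgeR adjusted p = 0.523), and without mouse 1601 -0.22 (edgeR adjusted p = 0.952).

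Tcf21, a factor of splenic, cardiac and renal mesenchyme, measured 6.95, 7.50 and 4.15 CPM in MLKL ASO mice 1603, 1604 and 1607. Control ASO mice 1601, 1602 and 1608 measured 5.34, 5.45 and 0.794 CPM. The first 2 MLKL ASO mice were above every control, and mouse 1607 was below mice 1601 and 1602. In edgeR its log2 fold change was 0.68 (standard error 0.64, 95% interval -0.82 to 2.18; adjusted p = 0.711). Without mouse 1608 it was 0.20 (edgeR adjusted p = 0.801), and without mouse 1601 0.97 (edgeR adjusted p = 0.605).

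Wt1, the Wilms tumour factor of mesothelium and spleen mesenchyme, measured 3.73, 5.96 and 1.84 CPM in MLKL ASO mice 1603, 1604 and 1607. Control ASO mice 1601, 1602 and 1608 measured 5.07, 3.82 and 0.596 CPM. Mice of both groups were interleaved. The fitted edgeR log2 fold change came to 0.28 (standard error 0.73, 95% interval -1.44 to 1.99; adjusted p = 0.918). Without mouse 1608 it was -0.21 (edgeR adjusted p = 0.878), on the other side of 0. Without mouse 1601 it was 0.78 (edgeR adjusted p = 0.720).

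Mouse 1608 had 5.22-fold less Tcf21, 3.09-fold less Wt1 and 2.09-fold less Tlx1 CPM than the next lowest mouse. It was also the lowest mouse for 11 of 14 reticular fibroblast markers, against 24.1% of all genes tested, and Lum was at 0 counts there. As a list these 14 had 0 past the threshold in edgeR (at an unadjusted p under 0.05, 1 was higher and 1 lower) and 1 in DESeq2 (Thy1, named after its values were seen), and their median log2 fold change was -0.028. That median was -0.42 without mouse 1608 and 0.52 without control mouse 1601. Thy1 averaged 4.28 ± 0.741 CPM in MLKL ASO mice (SD, n = 3). Control ASO mice 1601, 1602 and 1608 measured 13.8, 9.42 and 6.68 CPM of Thy1. Thy1 was lower without overlap in MLKL ASO mice and highest in mouse 1601, as were all 12 T cell markers. The part of T cells in the Thy1 level was not tested. Of 12 pan-endothelial markers 9 were highest in mouse 1608, against 21.9% of all genes. Dcn, the matrix proteoglycan decorin, measured 31.2 ± 8.50 CPM in MLKL ASO mice and 18.1 ± 9.27 CPM in control ASO mice (SD, n = 3 each). Fn1, fibronectin, averaged 15.7 ± 3.64 CPM in MLKL ASO mice and 17.1 ± 7.91 CPM in control ASO mice, and Col1a2, a collagen I chain, 12.6 ± 2.02 CPM in MLKL ASO mice and 10.9 ± 7.33 CPM in control ASO mice. In bulk samples fewer cells of a type and less RNA per cell cannot be told apart.

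As a percent of the summed fibroblast markers, Tcf21 was 7.25%, 5.85% and 4.77% in MLKL ASO mice 1603, 1604 and 1607, against 3.86%, 5.11% and 2.04% in control ASO mice 1601, 1602 and 1608. Mouse 1602 overlapped with the MLKL ASO group (exact two-sided permutation p = 0.2, n = 3 per group). Wt1 came to 2.12% to 4.65% in MLKL ASO mice and 1.53% to 3.67% in control ASO mice. Tlx1 came to 0.546% to 2.27% in MLKL ASO mice and 0.583% to 2.70% in control ASO mice. Over the 6 mice the spread of Tcf21 was 3.55-fold on this scale and 13.7-fold against the pan-endothelial markers.

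Wt1 is a mesothelial gene too, and mesothelial RNA was scarce. The 9 mesothelial markers measured summed to 9.0 to 17.0 CPM in MLKL ASO mice and 5.09 to 13.5 CPM in control ASO mice, most of it from Gpm6a, which averaged 8.68 ± 1.54 CPM in MLKL ASO mice and 8.06 ± 2.84 CPM in control ASO mice (SD, n = 3 each). Upk3b, a mesothelial uroplakin, was highest in MLKL ASO mouse 1604 at 3.03 CPM and in control ASO mouse 1601 at 1.31 CPM, the mice that were also highest for Wt1 in their groups. The keratin Krt18 averaged 0.462 ± 0.490 CPM in MLKL ASO mice and 0.770 ± 0.530 CPM in control ASO mice. Of the 9 markers 5 were at 0 counts in at least 1 library, among them Msln in control mice 1602 and 1608. The part of mesothelium in the Wt1 level was not tested. Of 3 acinar markers of the neighbouring pancreas, Prss2 and Cpa1 stayed at or under 0.273 CPM in all mice, and Cela1 averaged 14.4 ± 2.42 CPM in MLKL ASO mice and 12.5 ± 7.67 CPM in control ASO mice.

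**Figure D3:**
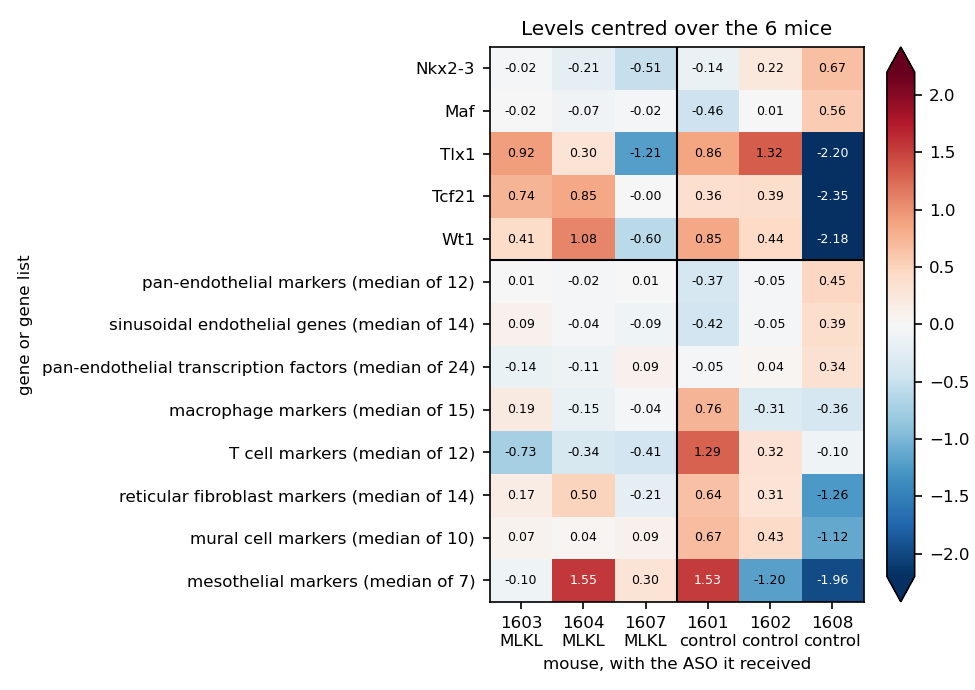
Log2 CPM of each factor (top) and the median over each gene list (below) after subtracting the mean of the 6 mice, by mouse, with MLKL ASO mice on the left and control ASO mice on the right. Tlx1, Tcf21 and Wt1 lie at -2.2, -2.35 and -2.18 in control mouse 1608, where reticular fibroblast markers lie at -1.26 and pan-endothelial markers at 0.45.

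With all 6 mice, Nkx2-3 and Maf lay far from Tlx1, Tcf21 and Wt1 in how they varied between mice, described here without a test. The measure was the root mean square difference between the log2 CPM of 2 genes after centring each on its mean of the 6 mice. It was 0.27 between Nkx2-3 and Maf, with 2802 of 14468 genes closer to Maf than Nkx2-3 was, and 0.36 between Tcf21 and Wt1. Tlx1 differed by 0.58 from Wt1 and by 0.70 from Tcf21. Between either of Nkx2-3 and Maf and any of the other 3 it was 1.33 to 1.5, and for each such pair at least 14184 of the 14468 genes compared were closer. Mouse 1608 made most of this contrast. Without it the difference between Nkx2-3 and Tcf21 was 0.30, and 8062 genes were closer to Tcf21 than Wt1 was, against 36 with all 6 mice. Between Nkx2-3 and Maf it was 0.29 without mouse 1608, with 7553 genes closer. Tlx1 was then nearer to Nkx2-3 (0.67) than to Tcf21 (0.76).

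The genes most like each member over the 6 mice were named by the same measure. For Nkx2-3 they were Vat1, a vesicle amine transport protein (0.057), Gm26714 (0.070) and AU021092 (0.075). Vat1 measured 57.6 ± 8.55 CPM in MLKL ASO mice and 83.2 ± 20.7 CPM in control ASO mice (SD, n = 3 each). For Maf they were Galc, the lysosomal galactosylceramidase (0.042), the SoxC factor Sox4 (0.047) and Stox1 (0.051). Sox4 measured 94.1 ± 6.29 CPM in MLKL ASO mice and 103 ± 34.9 CPM in control ASO mice. For Tcf21 they were Ak1, an adenylate kinase (0.097), Nfasc, the adhesion molecule neurofascin (0.10), and Olfml3, a secreted matrix protein (0.12). Olfml3 measured 13 ± 3.98 CPM in MLKL ASO mice and 8.79 ± 6.29 CPM in control ASO mice. For Wt1 they were Lhfp (0.21), the secreted Wnt inhibitor Frzb (0.25) and the cytochrome Cyp1b1 (0.26), and for Tlx1 the antibody gene segment Igkv8-34 (0.22), Arhgap20 (0.28) and the G protein subunit Gna14 (0.37). Igkv8-34 belongs to a family of near-identical segments, so its counts are uncertain.

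**Figure D4:**
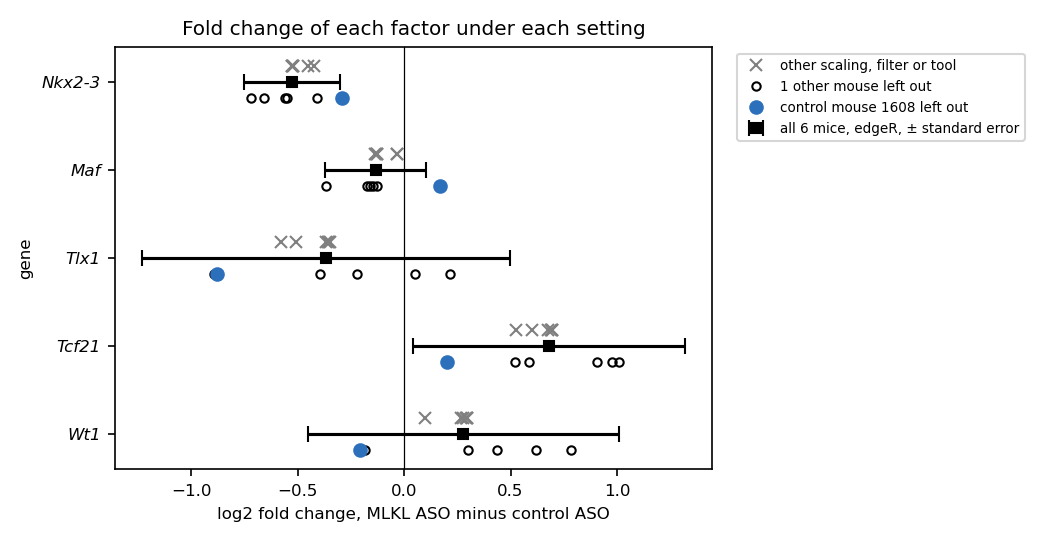
Log2 fold change of each factor, MLKL ASO minus control ASO. Squares are the edgeR fit on all 6 mice with 1 standard error, crosses other scalings, filters or tools, open circles fits without 1 mouse, and filled circles fits without control mouse 1608. Nkx2-3 lies below 0 and Tcf21 above 0 throughout, whereas Maf, Tlx1 and Wt1 lie on both sides.

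Among 14 factors known to work with the members in spleen or gut mesenchyme, 10 were tested. In edgeR 0 of the 10 passed in either direction (1 lower at an unadjusted p under 0.05), as with DESeq2 (0). Their median log2 fold change was -0.082, with 4 above and 6 below 0, against a median of -0.0092 over all genes tested. It was 0.11 without control mouse 1608, 0.23 without control mouse 1602 and 0.047 with no filter on low counts. Groups did not overlap for 2, Meis2 and Foxf1, both lower, against 9.71% of all genes that were lower without overlap.

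Meis2, a cofactor of PBX and HOX proteins, measured 17.2, 12 and 10.6 CPM in MLKL ASO mice 1603, 1604 and 1607, against 18.5, 21.9 and 32.8 CPM in control ASO mice 1601, 1602 and 1608. Its log2 fold change came to -0.88 (standard error 0.27; edgeR unadjusted p = 0.0135, adjusted p = 0.349) and was -0.60 without mouse 1608. Its relative Meis1 lay on the other side of 0, with 29.7 ± 9.0 CPM in MLKL ASO mice and 21.3 ± 8.59 CPM in control ASO mice (log2 fold change 0.48, edgeR adjusted p = 0.618, and 0.20 without mouse 1608). Foxf1, a forkhead factor of gut mesenchyme, averaged 1.11 ± 0.209 CPM in MLKL ASO mice and 1.60 ± 0.286 CPM in control ASO mice (log2 fold change -0.52, edgeR adjusted p = 0.541, and -0.59 without mouse 1608).

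The TALE homeobox factors Pbx2 and Pbx3 averaged 7.96 ± 0.406 and 5.10 ± 0.323 CPM in MLKL ASO mice, and 8.76 ± 0.726 and 5.19 ± 1.55 CPM in control ASO mice. Nkx2-5, a homeobox factor of heart and spleen mesenchyme, measured 1.59, 1.28 and 0.666 CPM in MLKL ASO mice and 3.07, 1.80 and 0.241 CPM in control ASO mice. Like Tlx1, it was lowest in mouse 1608 and, among MLKL ASO mice, in mouse 1607. Nr5a1, the nuclear receptor SF-1 known in spleen vessels, measured 89.6, 86.3 and 89.0 CPM in MLKL ASO mice and 64.9, 83.2 and 148 CPM in control ASO mice, the same order of control mice as Maf. Hoxa5 averaged 24.0 ± 12.7 CPM in MLKL ASO mice and 22.0 ± 9.60 CPM in control ASO mice, and Hand2 0.447 ± 0.0956 CPM in MLKL ASO mice and 0.312 ± 0.301 CPM in control ASO mice. Nkx3-2 and Tlx2 were under the filter, at no more than 0.195 CPM in any mouse.

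Madcam1 encodes the addressin MAdCAM-1, whose expression in mouse spleen depends on Nkx2-3. It measured 125, 238 and 379 CPM in MLKL ASO mice 1603, 1604 and 1607, against 64.1, 161 and 24.7 CPM in control ASO mice 1601, 1602 and 1608. The mice with the lowest Nkx2-3 in the MLKL ASO group (1607) and the highest in the control group (1608) were at the opposite ends for Madcam1. Control mice 1601 and 1602 went the other way, with mouse 1602 higher than mouse 1601 for both genes. Mouse 1608 also had the lowest reticular fibroblast sum. For Madcam1, mouse 1603 lay below mouse 1602, so the groups overlapped. Its log2 fold change came to 1.57 (standard error 0.67; edgeR unadjusted p = 0.0507, adjusted p = 0.423), and it was 1.13 without mouse 1608 (edgeR adjusted p = 0.379).

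**Figure D5:**
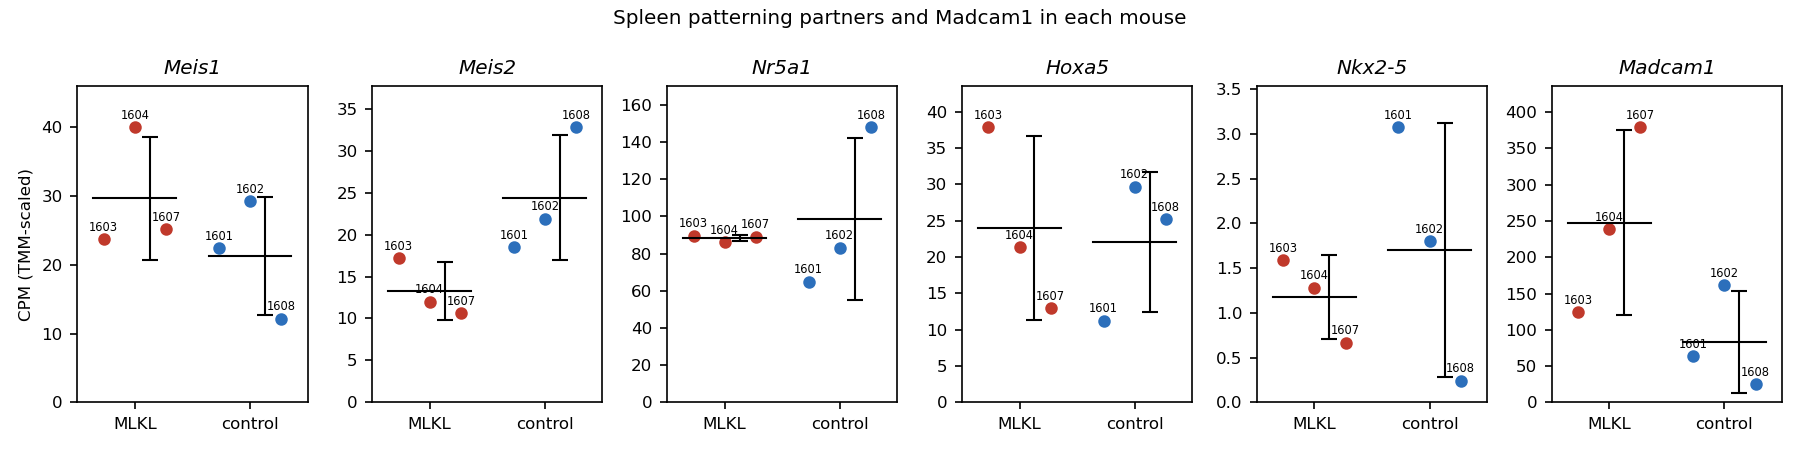
Levels of 5 patterning partners and of Madcam1 in each mouse, in TMM-scaled CPM from 0, with MLKL ASO mice in red and control ASO mice in blue. Lines are means and bars 1 SD (n = 3). Meis2 lies between 10.6 and 17.2 CPM in MLKL ASO mice and between 18.5 and 32.8 CPM in control ASO mice, and the other panels overlap.

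Of the relatives of the members 13 of 20 were tested, and 0 passed in edgeR or in DESeq2 (3 lower at an unadjusted p under 0.05). Their median log2 fold change was -0.36, with 2 above and 11 below 0. It was -0.19 without mouse 1608 and -0.23 without MLKL ASO mouse 1603. Mafg, a small Maf protein, averaged 63.1 ± 7.01 CPM in MLKL ASO mice and 65.0 ± 5.99 CPM in control ASO mice. Gata6, a relative of Gata4, averaged 13.3 ± 0.660 CPM in MLKL ASO mice and 14.9 ± 4.64 CPM in control ASO mice (log2 fold change -0.16, edgeR adjusted p = 0.836, and 0.0065 without mouse 1608). Egr1, a zinc finger relative of Wt1 and an immediate early gene, averaged 228 ± 67.4 CPM in MLKL ASO mice and 431 ± 195 CPM in control ASO mice (log2 fold change -0.92, edgeR adjusted p = 0.386, and -0.48 without mouse 1608).

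Transcription factors of endothelium at large had 0 of 24 past the threshold in edgeR (3 lower at an unadjusted p under 0.05), and their median log2 fold change was -0.11 (10 above 0, 14 below). Ets1, an ETS factor, averaged 438 ± 65.2 CPM in MLKL ASO mice and 487 ± 73.8 CPM in control ASO mice. Mef2c averaged 278 ± 19.7 CPM in MLKL ASO mice and 299 ± 40.8 CPM in control ASO mice, and Ets2 198 ± 23.4 CPM in MLKL ASO mice and 216 ± 68.4 CPM in control ASO mice. DESeq2 and limma-voom each called 1 of them, the arterial factor Sox17, named here after its values were seen. It measured 81.6, 79.8 and 72.8 CPM in MLKL ASO mice and 148, 227 and 239 CPM in control ASO mice (log2 fold change -1.39, edgeR adjusted p = 0.121, and -1.27 without mouse 1608).

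Genes of sinusoidal endothelium had 0 of 14 past the threshold in edgeR (2 lower at an unadjusted p under 0.05) and 1 in DESeq2, and their median log2 fold change was -0.081 (6 above 0, 8 below). That median was 0.41 without mouse 1608, 0.16 in limma-voom and 0.062 when libraries were scaled to the pan-endothelial markers. Stab2, a scavenger receptor of sinusoids, measured 725, 602 and 635 CPM in MLKL ASO mice and 520, 686 and 1003 CPM in control ASO mice, with mouse 1601 lowest and mouse 1608 highest as for Maf. Plvap, the diaphragm protein of fenestrated vessels, averaged 1977 ± 718 CPM in MLKL ASO mice and 3551 ± 876 CPM in control ASO mice, without overlap (log2 fold change -0.84, edgeR adjusted p = 0.380, and -0.64 without mouse 1608). Cd36, a fatty acid transporter, averaged 1798 ± 293 CPM in MLKL ASO mice and 1977 ± 571 CPM in control ASO mice (edgeR adjusted p = 0.855). The call in DESeq2 was Clec4g, a sinusoidal lectin, named here after its values were seen (log2 fold change -1.13, edgeR adjusted p = 0.121, and -1.02 without mouse 1608).

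Homing and niche genes of spleen vessels and stroma had 0 of 11 past the threshold in edgeR (1 lower at an unadjusted p under 0.05) and 0 in DESeq2, and their median log2 fold change was -0.064 (0.12 without mouse 1608). Kitl, the stem cell factor, averaged 482 ± 27.4 CPM in MLKL ASO mice and 490 ± 204 CPM in control ASO mice. Vcam1, an adhesion molecule, averaged 270 ± 58.3 CPM in MLKL ASO mice and 359 ± 86.8 CPM in control ASO mice. Ccl21a, a T zone chemokine with near-identical copies, averaged 255 ± 98.5 CPM in MLKL ASO mice and 191 ± 74.7 CPM in control ASO mice. Genes that make, break down or sense retinoic acid, which Tlx1 restrains in the mouse spleen primordium, had 0 of 12 past the threshold in edgeR (0 at an unadjusted p under 0.05) and 0 in DESeq2, with a median log2 fold change of -0.19. The median was -0.0044 without control mouse 1602 and -0.041 with no filter on low counts. Dhrs3, a retinal reductase, averaged 301 ± 9.86 CPM in MLKL ASO mice and 366 ± 71.2 CPM in control ASO mice. The retinal dehydrogenase Aldh1a1 averaged 29.1 ± 6.04 CPM in MLKL ASO mice and 34.0 ± 5.31 CPM in control ASO mice, and the degrading enzyme Cyp26b1 0.736 ± 0.388 CPM in MLKL ASO mice and 0.666 ± 0.165 CPM in control ASO mice. Mural cell markers had 0 of 10 past the threshold in edgeR (0 at an unadjusted p under 0.05) and 0 in DESeq2. Their median log2 fold change was -0.19, and -0.52 without mouse 1608, in which 6 of the 10 were lowest. Mcam averaged 32.7 ± 7.45 CPM in MLKL ASO mice and 35.3 ± 16.3 CPM in control ASO mice (SD, n = 3 each). By level the list was led by Kcnj8 and Abcc9, the subunits of a potassium channel, at 275 ± 25.7 and 171 ± 12.6 CPM in MLKL ASO mice and 254 ± 118 and 146 ± 88.7 CPM in control ASO mice. These 3 were highest in mouse 1608, unlike the contractile and pericyte genes Acta2, Des and Rgs5, named after their values were seen. Their log2 fold changes were -0.50, -0.59 and -0.68 with all 6 mice (edgeR adjusted p = 0.756, 0.693 and 0.469), and -0.96, -1.02 and -0.96 without mouse 1608 (edgeR adjusted p = 0.113, 0.178 and 0.171). Abcc9 went the other way, from 0.22 with all 6 mice to 0.83 without mouse 1608 (edgeR adjusted p = 0.156). Des was counted here among the fibroblast markers. The remaining mural markers Tagln, Notch3, Myh11, Cspg4 and Cnn1 had log2 fold changes of 0.085, 7.4e-05, -0.26, -0.27 and -0.43 with all 6 mice.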

How the data were processed

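Per the labels' protocols, RNA of splenic endothelial cells from 6 mice was purified on Direct-zol columns and sequenced from a strand-specific mRNA library kit. The submitters' processing notes name fastp 0.20.1, Salmon 1.3.0 and DESeq2, without a genome build. Build and annotation: not given in the sources used here. The deposited table holds estimated counts per gene symbol, of which 69.3% of values are not whole (tolerance 1e-06). The authors' deposited DESeq2 table holds, per the file headers, a mean signal per gene over all libraries, in normalised counts, log2 fold changes, a Wald score and p-values. Its direction was settled against the counts: the sign was that of MLKL ASO minus control ASO for 388 of the 388 genes past its threshold that edgeR tested.

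Estimated counts were rounded and fitted in R 4.3.3 with edgeR 4.0.16 (default expression filter, 19745 genes; TMM; quasi-likelihood test, two-sided; Benjamini-Hochberg over all genes, threshold 0.05). Standard errors are the log2 fold change over the root of F. Alternatives used limma 3.58.1 and DESeq2 1.42.0. The fits were tested on simulated data. Each library is from a separately numbered mouse, per the labels. Alternatives changed the scaling, the filter or the tool, or left out 1 mouse.

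The members and gene lists were chosen with earlier results of these data known. Genes were named by rule: all members and tested partners, the 3 highest genes of each other list by mean CPM and any past the threshold, the 3 genes most like each member, and a set of single genes (Mlkl, Madcam1, Gata6, Cyp26b1 and Aldh1a1 among them). Some genes that this rule names are not reported here. Antisense genes overlap Tlx1, Tcf21 and Maf in GENCODE vM21. The kit marks strand, but whether counting used it is not given, so their reads cannot be told apart. At 42 to 134 counts per library in MLKL ASO mice and 16 to 239 in control ASO mice, Tlx1 is the least precise member.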

Additional observations from a re-analysis of the deposited data

How the results depend on the processing

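The number of members past the threshold was 0 under every alternative run. The log2 fold change of Nkx2-3 stayed below 0 (-0.72 to -0.29 without 1 mouse, -0.53 to -0.42 otherwise) and that of Tcf21 above 0 (0.20 to 1.01 and 0.53 to 0.69). Those of Tlx1 (-0.89 to 0.21), Wt1 (-0.21 to 0.78) and Maf (-0.37 to 0.17) crossed 0 without 1 mouse: Tlx1 at 0.050 without mouse 1607 and 0.21 without mouse 1602, Wt1 at -0.18 without mouse 1604 and -0.21 without mouse 1608, and Maf at 0.17 without mouse 1608. The cause was not tested. Over all genes edgeR called 1 higher and 1 lower. DESeq2 called 224 higher and 291 lower. Sample-weighted limma-voom gave 9 higher and 13 lower, and scaling to the pan-endothelial markers 4 higher and 0 lower. Without 1 mouse the counts ran from 0 to 10 higher and from 0 to 9 lower. Of the alternatives for lists, ratios and Mlkl, 329 kept their value or call, 21 moved by more than the spread or the 1.5-fold limit, and 2 newly passed the threshold: Mlkl in DESeq2 (adjusted p 1.20e-15) and in limma-voom (0.0186). No paired analysis was possible because no mouse number recurs between the groups. Low counts limit Tlx1, Wt1 and Tcf21, whose lowest library, that of mouse 1608, held 16, 42 and 56 counts. That library was not the smallest, with a total of 67699450 against 59988846 in mouse 1603.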
